A study of Mus musculus with 74 samples.

Results

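The oxidative phosphorylation machinery was followed through those of its subunits that are encoded in the nucleus. A gene was taken where its name began with Nduf, Uqcr, Atp5, Cox4, Cox5, Cox6, Cox7 or Cox8, or was Sdha, Sdhb, Sdhc or Sdhd, and names with -ps were left out. This gave 96 genes of the 22079 that carry a name in the 5 tables of group means analysed here. FVB Her2 held 94 of them, FVB C3Tag 93, BALB PyMT-F1 87, SEA/Gn PyMT-F1 86, and a further PyMT-F1 table that was deposited as AKR held 94. By name, 84 of the 96 were placed as subunits, with 40 in complex I, 4 in complex II, 8 in complex III, 15 in complex IV and 17 in complex V. Of these 84, 4 are annotated as processed pseudogenes, Ndufa11b, Ndufb4c and Ndufs6b in complex I and Cox6c2 in complex IV, and were kept by the name rule. The name rule also took 9 assembly factors of complex I (the Ndufaf genes and Atp5sl) and 3 genes that are neither, namely Cox7a2l, Ndufa4l2 and Atp5s.

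RNA-seq was performed on bulk PT (primary mammary tumor) and Lung met tissue of female transgenic mice, 74 samples in all, to ask how the oncogenic driver and the genetic background shape expression in metastases. FVB Her2 (labelled MMTV-Her2) had 6 PTs and 6 Lung mets, and its neu oncogene is driven by the mouse mammary tumor virus promoter. FVB C3Tag (labelled C3TAg) had 7 and 7, and in it the C3(1) promoter drives the SV40 large T antigen. BALB and SEA/Gn PyMT-F1 had 6 and 6 each and were daughters of FVB males carrying MMTV-PyMT, the polyomavirus middle T antigen, and females of the other strain, so that mice of every group had an FVB parent. No age was given for the samples. PyMT-F1 mice were aged until they were at or near the humane endpoint, whereas in the Her2 and C3Tag models the tumor of mice with a single lesion was removed by surgery while small and the mice were then aged further. In both FVB models PT and Lung met tissue can thus come from different times. All primary tumor tissue of a mouse was combined, whereas metastases were used whole, so Lung met RNA can include lung. For part of the PyMT-F1 samples the strain in the sample name differed from the strain in the genotype label, and the sample name was followed. The source name also gave the other tissue than the tissue label in 16 samples, all of PyMT-F1 crosses. Among them were 4 of 6 BALB PTs, 2 of 6 BALB Lung mets, 2 of 6 SEA/Gn PTs and 3 of 6 SEA/Gn Lung mets. The sample names and the tissue labels agree there, and the means were taken as the tables name their tissue. Which samples entered a mean is not given in the sources used here, and for C3Tag PTs the study's sample list is longer than the labels. The strain behind the table deposited as AKR was not settled, and no labelled sample was tied to it. The FVB Myc table held no group means and was not used here.

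Each table gave one normalized count per gene and tissue, the authors' least-squares mean over the samples of a group. No value of a single sample was analysed, so the spread between mice is unknown, no difference below was tested, and every statement compares 2 group means. Tables were normalized separately, so levels are set against each other only within a table. The scale used throughout is the log2 ratio of the Lung met mean over the PT mean, each plus 1, with positive values for a higher Lung met mean. A gene entered where its mean over both tissues was at least 10. All 94 members passed in FVB Her2, 93 of 93 in FVB C3Tag, 85 of 87 in BALB, 86 of 86 in SEA/Gn and 93 of 94 in the table deposited as AKR, where Atp5g2 had no mean. Cox6b2 and Cox7a1 were under the limit in BALB. In FVB C3Tag the means summed over all genes were 1.74 times as high in PT as in Lung met, with the small RNA gene Gm22614 taking 38.3% of the PT sum, so no member is given as a share of such a sum.

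Oxidative phosphorylation couples the transfer of electrons along complexes I to IV of the inner mitochondrial membrane to the synthesis of ATP. Complex I takes electrons from NADH and complex II from succinate, complex III passes them to cytochrome c, and complex IV hands them to oxygen. All of these but complex II pump protons, and complex V, the ATP synthase, uses the gradient. Complex II is made wholly from nuclear genes, whereas each of the others combines nuclear subunits with a few that mitochondrial DNA encodes. The nuclear genes are known to be transcribed together, and the factors NRF1, GABP (an ETS protein) and YY1 are known regulators of many of them.

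The promoters of the members were searched for the words of these 3 factors. RefSeq promoters on GRCm38.p6, from 250 bases before the start of a gene to 50 after it, were matched by symbol for 75 members. Exact words were searched on both strands, GCGCATGCG for NRF1, CCGGAAG for ETS factors and AAGATGGCG for YY1. The NRF1 word was in 10 member promoters (13.3%), against 1.95% of all 27025 promoters in the table and 3.73% of the 11407 whose gene passed the limit in FVB Her2. For the ETS word the numbers were 19 members (25.3%), 9.93% and 18.8%. For the YY1 word they were 8 members (10.7%), 1.64% and 3.23%. Members with the NRF1 word had a median log2 ratio of -0.12 in FVB Her2 and 0.17 in SEA/Gn, and members without it had -0.11 and 0.14. In BALB the medians were 0.10 with and 0.12 without the word, and in the table deposited as AKR 0.50 and 0.33. For the YY1 word they were 0.059 and 0.12 in BALB and 0.32 and 0.35 in the table deposited as AKR, and for the ETS word 0.12 and 0.11 in BALB and 0.35 and 0.33 in the table deposited as AKR. Each word was more frequent among members than in either background, and members with a word lay on no one side of the rest across tables.

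The 250 bases upstream of 5 complex IV genes are shown, since they set widely expressed isoforms beside tissue-restricted ones whose values departed from them. Neither Cox4i1 nor Cox4i2 is among the 5, and Cox6a1 is shown without a restricted form. Capitals mark the words, all 5′ to 3′ on the strand of the gene. Cox6a1 (chr5:115348959-115349208, minus strand), the liver-type form of subunit VIa, held an NRF1 word that reads as such on both strands and an ETS word on the opposite strand. Cox6b1 (chr7:30626115-30626364, minus strand), the widely expressed form of subunit VIb, held the ETS word. Its testis isoform Cox6b2 (chr7:4753095-4753344, minus strand), the widely expressed Cox7a2 (chr9:79759854-79760103, minus strand) and the muscle isoform Cox7a1 (chr7:30183921-30184170, plus strand) held none of the 3 words in these windows.
Cox6a1: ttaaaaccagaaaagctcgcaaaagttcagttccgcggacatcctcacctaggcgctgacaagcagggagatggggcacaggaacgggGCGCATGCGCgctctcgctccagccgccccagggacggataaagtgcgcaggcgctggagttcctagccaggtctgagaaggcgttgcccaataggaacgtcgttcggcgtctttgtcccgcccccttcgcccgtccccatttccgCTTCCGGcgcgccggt
Cox6b1: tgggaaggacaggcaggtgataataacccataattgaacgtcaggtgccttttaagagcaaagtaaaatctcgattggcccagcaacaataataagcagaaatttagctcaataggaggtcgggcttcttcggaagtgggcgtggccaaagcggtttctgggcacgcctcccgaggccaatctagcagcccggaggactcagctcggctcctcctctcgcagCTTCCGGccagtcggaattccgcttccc
Cox6b2: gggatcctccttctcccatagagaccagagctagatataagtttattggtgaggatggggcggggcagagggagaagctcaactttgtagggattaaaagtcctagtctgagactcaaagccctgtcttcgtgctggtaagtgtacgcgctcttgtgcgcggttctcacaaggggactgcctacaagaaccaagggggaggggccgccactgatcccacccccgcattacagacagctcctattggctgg
Cox7a2: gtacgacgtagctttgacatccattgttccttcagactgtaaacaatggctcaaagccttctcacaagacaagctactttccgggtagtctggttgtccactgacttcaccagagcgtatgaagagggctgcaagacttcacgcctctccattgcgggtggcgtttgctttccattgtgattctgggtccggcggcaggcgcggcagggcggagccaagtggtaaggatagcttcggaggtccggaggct
Cox7a1: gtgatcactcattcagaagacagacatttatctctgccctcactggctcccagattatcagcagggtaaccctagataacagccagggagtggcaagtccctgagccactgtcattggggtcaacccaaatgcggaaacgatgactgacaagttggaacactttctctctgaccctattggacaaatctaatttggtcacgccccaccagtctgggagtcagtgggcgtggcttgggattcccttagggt

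In FVB Her2 nearly the whole set was slightly lower in Lung met than in PT. The median log2 ratio of the members was -0.11, a ratio of 0.927, with quartiles of -0.17 and -0.051, while the median of all genes was -0.0020. Of 94 members, 9 were higher and 85 lower in Lung met, and 57 differed by less than 10%. Over all 17100 genes 49.5% were higher. Past 1.5-fold only 1 member was higher and 0 lower, against 4.84% and 3.27% of all genes. The difference was small in most genes and alike in direction across them. In bulk tissue a smaller share of a cell type and less RNA per cell cannot be told apart.

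FVB C3Tag members lay close to equality. Their median log2 ratio was -0.042 against 0.010 over all genes, with 36 of 93 members higher in Lung met and 57 lower. Higher genes made up 51.4% of all genes there. Past 1.5-fold 2 members were higher and 1 was lower, in a table where 13.8% of all genes passed it upward and 5.1% downward.

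Both labelled PyMT-F1 crosses had the set higher in Lung met. In BALB 73 of 85 members were higher, beside 56.5% of all genes, with a median log2 ratio of 0.12 against 0.034 over all genes. In SEA/Gn 77 of 86 were higher, beside 53.5% of all genes, with a median of 0.17 against 0.021. These medians are ratios of 1.09 and 1.13. Past 1.5-fold, 3 members were higher in BALB and 1 in SEA/Gn, and none was lower in either. The shares of all genes past 1.5-fold were 5.34% higher and 5.2% lower in BALB, and 6.1% and 6.8% in SEA/Gn.

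The table deposited as AKR had the highest member median of the 5, 0.35, a ratio of 1.28, beside 0.0067 for all genes. There 87 of 93 members were higher in Lung met, beside 50.7% of all genes. Past 1.5-fold 9 members were higher and 0 lower, beside 12.9% and 5.59% of all genes. A log2 ratio past 0.32 was reached by 56 members higher and 0 lower, beside 22.5% and 16.2% of all genes. In FVB Her2 1 member was past it higher and 4 lower, beside 9.89% and 8.18%. FVB C3Tag had 4 and 2, beside 22.6% and 14%. BALB had 7 and 0, beside 12.1% and 11.9%, and SEA/Gn 10 and 1, beside 13.5% and 14.2%. Outside the table deposited as AKR, members were thus no more often past these limits than all genes.

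**Figure D1:**
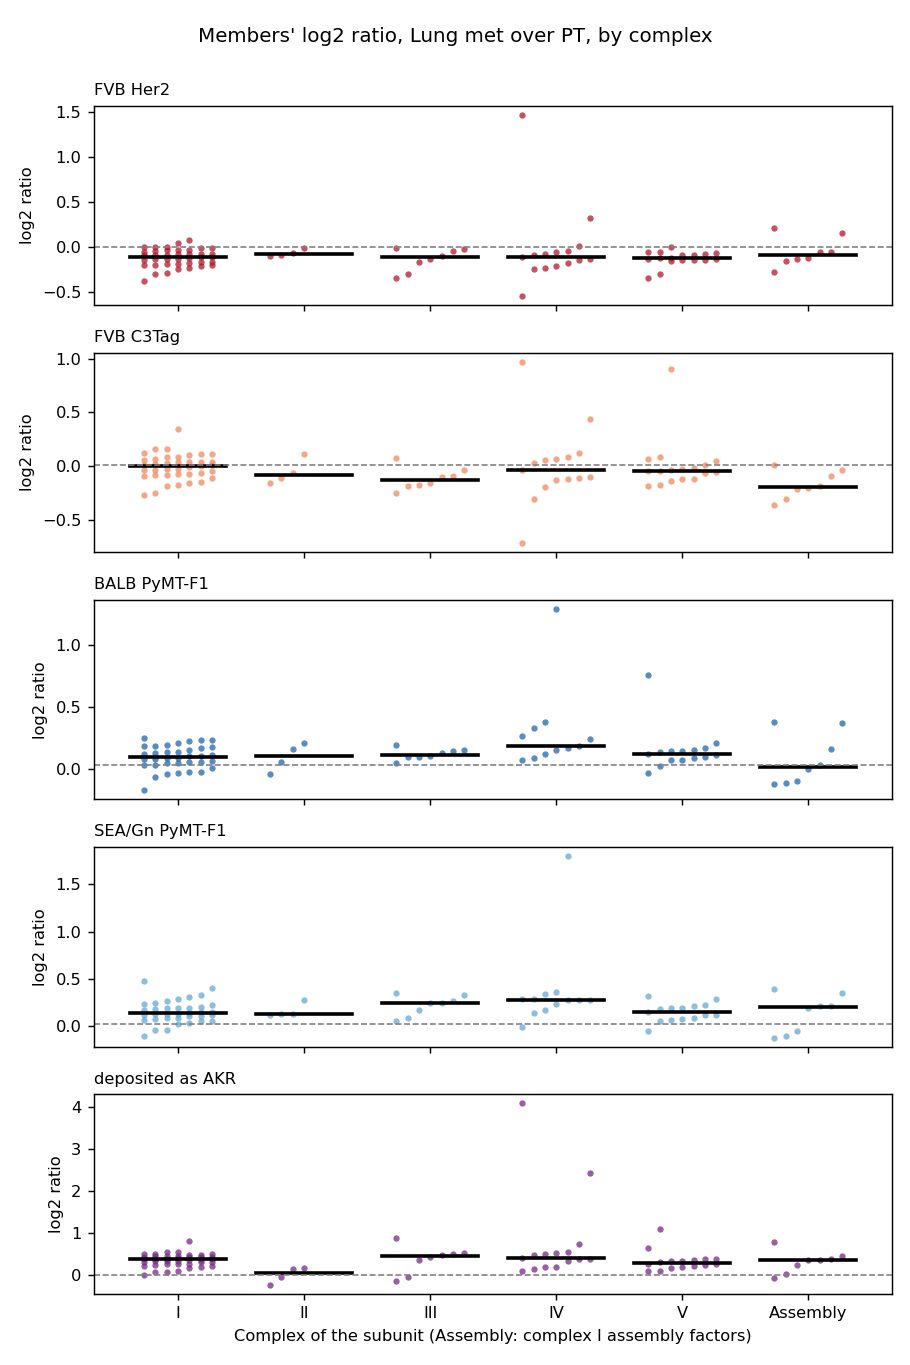
Log2 ratio of Lung met over PT for each member (points) by complex in the 5 tables, with the median of each complex as a black bar and the median of all genes as a dashed line; vertical scales differ between panels. In FVB Her2 the bars of all complexes lie below the dashed line, and in SEA/Gn and the table deposited as AKR all lie above it, with Cox4i2 as the highest point of complex IV in every panel.

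Most members shared one pattern of directions, which the high shares of lower members in FVB Her2 and of higher members in the PyMT-F1 tables make frequent. Of the members, 82 passed the limit in all 5 tables. Among them 57 (69.5%) were lower in FVB Her2 and higher in BALB, SEA/Gn and the table deposited as AKR, a pattern shown by 10.3% of the 11796 genes that passed in all 5 tables. In 34 of the 57 the FVB C3Tag mean was also lower in Lung met. BALB and SEA/Gn had 67 of the 82 higher in common (81.7%, against 41.9% of all genes), and FVB Her2 and FVB C3Tag had 48 lower in common (58.5% against 25.8%). Cox4i2 was the one member of the 82 (1.22%) higher in Lung met in all 5 tables, against 11.5% of all genes. In BALB and SEA/Gn its PT mean was under the limit, so its direction there follows from its entry through the Lung met mean. Ndufaf7, a methyltransferase that acts in complex I assembly, was the one lower in all 5, against 6.31% of all genes. For Ndufaf7 the log2 ratio was -0.13, -0.10, -0.10, -0.10 and -0.064 in the order of the tables above. Between BALB and SEA/Gn the sign was shared by 71 of 85 members (83.5%) and by 68.1% of all 13156 genes, while Spearman's rho was 0.241 across members and 0.48 across all genes. Between FVB Her2 and FVB C3Tag the sign was shared by 54 of 93 members (58.1%), near the 54.5% of all genes, with a rho of 0.124 across members and 0.158 across all genes. These are descriptions across genes, which are not independent replicates.

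**Figure D2:**
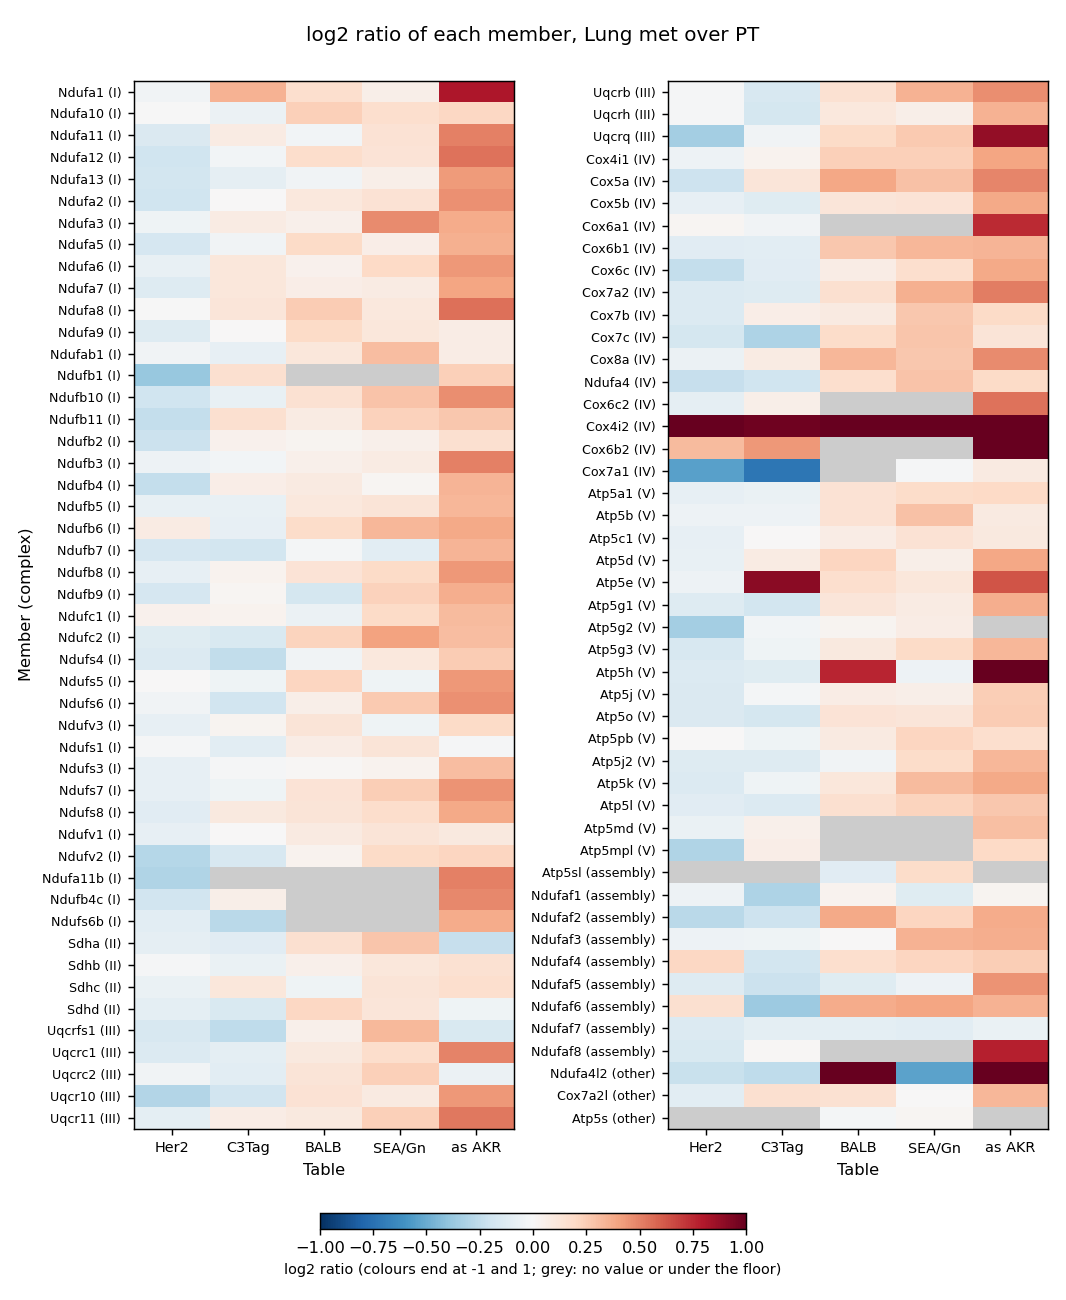
Log2 ratio of Lung met over PT of 95 members (rows, with complex or class in brackets) in the 5 tables (columns), red for higher and blue for lower Lung met means, with colours that saturate at 1 in either direction and grey for no value or a mean under 10. The FVB Her2 column is mostly pale blue and the column of the table deposited as AKR mostly red, whereas Cox4i2 is dark red in every column.

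Complex I, which oxidizes NADH, held the largest number of members. Its subunits had a median log2 ratio of -0.11 in FVB Her2 (3 of 40 higher), 6.1e-05 in FVB C3Tag (20 of 39), 0.10 in BALB (30 of 36), 0.14 in SEA/Gn (33 of 36) and 0.37 in the table deposited as AKR (39 of 40). Without the 3 pseudogenes the medians were -0.085, 6.1e-05, 0.10, 0.14 and 0.35. The 7 core subunits, which carry the flavin and the iron-sulfur clusters, were all lower in FVB Her2 and all higher in BALB and SEA/Gn. Ndufs1, the largest of them, had normalized counts of 2373 in PT and 2355 in Lung met in FVB Her2, and of 476 in PT and 522 in Lung met in SEA/Gn. Ndufv1, which binds NADH, had 2069.9 in PT and 1953 in Lung met in FVB Her2 and 379.6 in PT and 404 in Lung met in BALB. None of these core differences reached 1.5-fold.

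Core and accessory subunits of complex I differed in median in the table deposited as AKR, but their values overlapped. The core ran from -0.014 to 0.45 and the accessory subunits from 0.074 to 0.81. The 30 accessory subunits, which surround the core and stabilize it, were all higher in Lung met with a median of 0.37, and the core had 0.26 with Ndufs1 at -0.014. Ndufa1, a small membrane subunit, was highest among them at 990.0 in PT and 1739 in Lung met, a log2 ratio of 0.81. Ndufa1 was also the highest complex I subunit in FVB C3Tag, with 346 in PT and 439 in Lung met, a log2 ratio of 0.35. In SEA/Gn the highest were Ndufa3 (187 in PT and 260.5 in Lung met) and Ndufc2 (159.6 in PT and 211 in Lung met), and the lowest was Ndufb7 at -0.11. The lowest in BALB was Ndufb9, with 362 in PT and 321 in Lung met, a log2 ratio of -0.17. In FVB Her2 it was Ndufb1, with 1652 in PT and 1270.3 in Lung met, a log2 ratio of -0.38. Ndufb4, Ndufa11 and Ndufs6 have near copies in the annotation (Ndufb4c, Ndufa11b and Ndufs6b) that can share their reads, so their separate values are uncertain, as are those of Cox6c and Cox6c2.

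Complex II, succinate dehydrogenase, also serves in the citric acid cycle. Its 4 subunits were all lower in FVB Her2 (median -0.079) and all higher in SEA/Gn (0.13). Sdha, the flavoprotein that oxidizes succinate, had 5551 in PT and 5219.6 in Lung met in FVB Her2 and 1074 in PT and 1301 in Lung met in SEA/Gn. For Sdha the table deposited as AKR gave 6208 in PT and 5279 in Lung met, a log2 ratio of -0.23 and the lowest of its 93 members. Sdhb, the iron-sulfur subunit, was at 0.15 there, and the membrane anchors Sdhc and Sdhd were at 0.16 and -0.044. The complex II median in that table was 0.053, while the other complexes had medians from 0.29 to 0.45. In FVB C3Tag Sdhc was higher (0.12) and the other 3 lower, and in BALB Sdhc was lower (-0.039) and the other 3 higher.

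Complex III, the cytochrome bc1 complex, had all 8 nuclear subunits lower in FVB Her2 and all 8 higher in BALB and in SEA/Gn. The medians were -0.11, 0.12 and 0.24. All subunits but Uqcr11, 7 of the 8, were lower in FVB C3Tag, where the median of -0.13 was the lowest of the 5 complexes. Uqcrfs1, the Rieske protein that receives electrons from ubiquinol, had 1585 in PT and 1329.7 in Lung met in FVB C3Tag and 417 in PT and 522 in Lung met in SEA/Gn, log2 ratios of -0.25 and 0.32. Uqcrc1 and Uqcrc2, the core proteins, were at -0.13 and -0.038 in FVB Her2 and at 0.17 and 0.24 in SEA/Gn. They parted in the table deposited as AKR, with Uqcrc1 at 2831 in PT and 3999 in Lung met (0.50) and Uqcrc2 at 6569 in PT and 6307 in Lung met (-0.059). Uqcrfs1 was at -0.15 there, and the 5 small subunits were all higher, with Uqcrq, a subunit beside cytochrome b, at 2018 in PT and 3705 in Lung met and 0.88. Uqcrq was among the lowest members in FVB Her2, with 1774 in PT and 1404 in Lung met and -0.34.

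Complex IV, cytochrome c oxidase, had its 10 or 11 widely expressed subunits all higher in the 3 PyMT-F1 tables. Their medians were 0.18 in BALB, 0.27 in SEA/Gn and 0.38 in the table deposited as AKR, against -0.13 in FVB Her2 and -0.10 in FVB C3Tag. Of the 11, 10 were lower in FVB Her2 and 7 in FVB C3Tag. Cox5a, a matrix-side subunit, had 2288 in PT and 1984 in Lung met in FVB Her2 and 218 in PT and 285 in Lung met in BALB, log2 ratios of -0.21 and 0.38. Cox5b, which binds zinc, was at -0.081 in FVB Her2, -0.12 in FVB C3Tag, 0.12 in BALB and 0.14 in SEA/Gn. Cox7c was the lowest of these subunits in FVB C3Tag, with 1184 in PT and 954 in Lung met, a log2 ratio of -0.31. In SEA/Gn complex IV had the highest median of the 5 complexes, and in BALB too.

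Complex V, the ATP synthase, had 16 of 17 subunits lower in FVB Her2 and 12 of 17 lower in FVB C3Tag. It had 14 of 15 higher in BALB, 14 of 15 in SEA/Gn and 16 of 16 in the table deposited as AKR. Atp5b, the catalytic beta subunit, had 26865 in PT and 25916 in Lung met in FVB Her2, 14329.9 in PT and 13824 in Lung met in FVB C3Tag, 5414 in PT and 5997 in Lung met in BALB and 4277 in PT and 5230.0 in Lung met in SEA/Gn. Atp5a1, the alpha subunit, went the same way with log2 ratios of -0.083, -0.066, 0.15 and 0.19. Atp5c1, the gamma subunit of the central stalk, was at -0.085, 0.0065, 0.077 and 0.14.

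A few complex V subunits stood apart from the others. Atp5h, of the peripheral stalk, had 325 in PT and 551 in Lung met in BALB and 4650.5 in PT and 9993 in Lung met in the table deposited as AKR, log2 ratios of 0.76 and 1.10. In SEA/Gn it had 331 in PT and 320.0 in Lung met, a log2 ratio of -0.050, and in FVB Her2 and FVB C3Tag -0.14 and -0.12. The other 3 stalk subunits, Atp5pb, Atp5j and Atp5o, lay between 0.071 and 0.14 in BALB. Atp5e, the small epsilon subunit of the central stalk, had 610.4 in PT and 1142 in Lung met in FVB C3Tag, a log2 ratio of 0.90, and 3082 in PT and 2973 in Lung met in FVB Her2. It was at 0.63 in the table deposited as AKR. Atp5g2, which with Atp5g1 and Atp5g3 encodes the c-ring, had 237 in PT and 187 in Lung met in FVB Her2, a log2 ratio of -0.34, where Atp5g1 and Atp5g3 had -0.13 and -0.16. The 3 c-ring genes encode the same mature protein, and reads may be split among them.

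Several complex IV subunits come in a widely expressed form and a form restricted to some tissues, and a restricted form gave the highest value in every table (Cox4i2) and the lowest in both FVB models (Cox7a1). Values for Cox6a2, Cox7b2, Cox8b and Cox8c were not analysed here. Cox4i2 (GRCm38 chr2:152754173-152765037, plus strand) encodes the isoform of subunit IV known from lung and from low oxygen. It had 19.8 in PT and 56.6 in Lung met in FVB Her2, a log2 ratio of 1.47. The means were 42.9 in PT and 85.0 in Lung met in FVB C3Tag (0.97), 7.55 in PT and 20.0 in Lung met in BALB (1.29) and 4.15 in PT and 16.9 in Lung met in SEA/Gn (1.80). Its means in the table deposited as AKR were 13.5 in PT and 246 in Lung met, a log2 ratio of 4.09. The PT means in BALB and SEA/Gn were under the limit of 10, so in these tables it entered through its Lung met mean alone, and in SEA/Gn it was the one member past 1.5-fold. Cox4i2 was the one member past 0.32 on the log2 scale in the same direction in at least 4 of the 5 tables, with BALB and SEA/Gn counted. Cox4i1, the common form, had 10929 in PT and 10572 in Lung met in FVB Her2 and 1009 in PT and 1189 in Lung met in SEA/Gn, with log2 ratios between -0.048 and 0.40 over the 5 tables. Per kilobase of exonic length, Cox4i2 was 0.355% of the sum of both forms in PT and 1.04% in Lung met of FVB Her2, and 0.803% and 2.72% in SEA/Gn. These shares were 0.341% and 4.52% in the table deposited as AKR.

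Lung alveolar and endothelial markers were, like Cox4i2, higher in Lung met in all 5 tables. The summed alveolar ratio was highest in FVB C3Tag (77.9), where Cox4i2 had its lowest log2 ratio (0.97). The summed endothelial ratio was highest in the table deposited as AKR (3.48), where Cox4i2 had its highest log2 ratio (4.09). Of 8 lung alveolar markers 4 had a value in each table (Sftpd, Ager, Napsa and Lamp3), and all 4 were past 1.5-fold higher in Lung met in all 5 tables. Their summed normalized count went from 1321 to 5678 in FVB Her2, 228 to 17724 in FVB C3Tag, 35.7 to 897 in BALB, 39.0 to 1815 in SEA/Gn and 625 to 25046 in the table deposited as AKR. All 5 endothelial markers were higher in Lung met in all 5 tables, with summed ratios of 1.68, 2.95, 1.62, 1.75 and 3.48. All 5 pericyte and smooth muscle markers had a value in FVB Her2, FVB C3Tag and BALB, and 3 in SEA/Gn and the table deposited as AKR. Their summed ratios were 1.11, 1.03, 0.837, 0.71 and 1.04, and 4, 3, 1, 1 and 2 of them were higher in Lung met. The median log2 ratios were 0.30, 0.067, -0.18, -0.32 and 0.39. The part of these cells in the Cox4i2 values was not tested.

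Cox7a1, the isoform of subunit VIIa found in heart, skeletal muscle and brown fat, had 173 in PT and 119 in Lung met in FVB Her2 and 44.6 in PT and 26.7 in Lung met in FVB C3Tag, log2 ratios of -0.54 and -0.72. In SEA/Gn and the table deposited as AKR it was at -0.011 and 0.086. Its SEA/Gn means, 10.1 in PT and 10.05 in Lung met, were close to the limit of 10. Cox7a2, the common form, was at -0.13, -0.13, 0.36 and 0.51 in these 4 tables. Of 6 skeletal muscle markers 3 had a value in FVB Her2 and in FVB C3Tag (Acta1, Ckm and Mylpf), and all 3 were past 1.5-fold lower in Lung met. Their summed count was 353 in PT and 31.1 in Lung met of FVB Her2, and 1140.1 and 54.1 in FVB C3Tag. The markers with a value were also lower in BALB (2 of 2) and SEA/Gn (1 of 1). The marker with a value in SEA/Gn was Acta1, at -3.09. In the table deposited as AKR both markers over the limit were higher, Acta1 at 1.601 and Mylpf at 0.061. The brown adipocyte marker Cidea was at 0.89 in FVB Her2 and -1.57 in FVB C3Tag. The 2 cardiac muscle markers with a value, Tnnt2 and Tnni3, were at -0.094 and -0.33 in FVB Her2 and at -0.59 and -1.40 in FVB C3Tag. The part of muscle or fat in the Cox7a1 values was not tested.

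Cox6b2, the isoform of subunit VIb known from testis, had 10.8 in PT and 13.7 in Lung met in FVB Her2 (0.32), 48.0 in PT and 65.2 in Lung met in FVB C3Tag (0.43) and 14.6 in PT and 82.9 in Lung met in the table deposited as AKR (2.43). Its common form Cox6b1 was at -0.11, -0.10 and 0.34. Ndufa4, once assigned to complex I and now counted to complex IV, was at -0.23, -0.20, 0.17, 0.29 and 0.19. Its paralogue Ndufa4l2, known as a gene induced by low oxygen, took opposite signs in both labelled PyMT-F1 crosses. It had 11.8 in PT and 26.8 in Lung met in BALB, a log2 ratio of 1.12, and 18.0 in PT and 12.1 in Lung met in SEA/Gn, a log2 ratio of -0.54. In the table deposited as AKR it had 19.1 in PT and 85.0 in Lung met (2.09), and in FVB Her2 and FVB C3Tag it was at -0.22 and -0.26. Cox7a2l, which takes part in joining complexes III and IV into supercomplexes, was at -0.11, 0.16, 0.15, 0.0014 and 0.33. Cox7b, the common form of subunit VIIb, was at -0.14, 0.064, 0.091, 0.27 and 0.19. For Cox8a, the common form of subunit VIII, the values were -0.058, 0.081, 0.33, 0.27 and 0.48, and Cox6a1 was at 0.018 in FVB Her2, -0.037 in FVB C3Tag and 0.75 in the table deposited as AKR. The common forms named here were higher in Lung met in each PyMT-F1 table that gave them, and all but Cox6a1 were lower in FVB Her2.

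**Figure D3:**
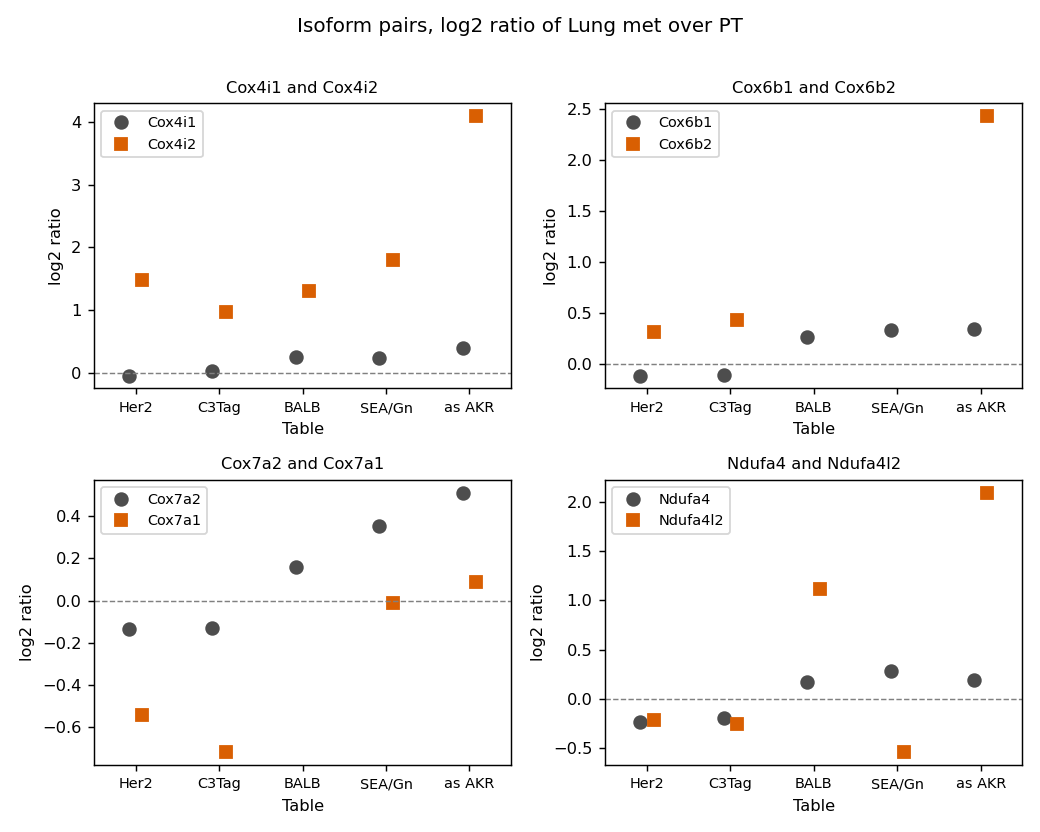
Log2 ratio of Lung met over PT for 4 pairs of a common form (grey circles) and a restricted form or paralogue (orange squares) in the 5 tables, where a missing symbol means no value or a mean under 10; vertical scales differ. Cox4i2 lies above Cox4i1 in all 5 tables and Cox7a1 below Cox7a2 in the 4 tables with both.

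The assembly factors of complex I, which chaperone its building and do not remain in it, were looked at apart. Their median was -0.089 in FVB Her2, -0.20 in FVB C3Tag, 0.017 in BALB, 0.20 in SEA/Gn and 0.35 in the table deposited as AKR, over 8 genes each. FVB C3Tag had 7 of the 8 lower, at a lower median than any complex there. Ndufaf6 and Ndufaf1 were the lowest, with 69.0 in PT and 53.4 in Lung met and 341 in PT and 274 in Lung met, log2 ratios of -0.36 and -0.31. Ndufaf6 was among the highest members of FVB Her2 (0.16) and SEA/Gn (0.40), and Ndufaf4 was among the highest of FVB Her2 at 0.21. In BALB Ndufaf5, Atp5sl and Ndufaf7 followed Ndufb9 as the lowest members, at -0.12, -0.11 and -0.10. In SEA/Gn Ndufaf1 and Ndufaf7 were among the lowest, at -0.12 and -0.10.

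Other mitochondrial gene lists were set beside the respiratory chain. The 78 genes of mitochondrial ribosomal proteins (75 in BALB and SEA/Gn), which translate mitochondrial DNA, had medians of -0.10 in FVB Her2 (17 higher), -0.10 in FVB C3Tag (19), 0.070 in BALB (55), 0.15 in SEA/Gn (62) and 0.24 in the table deposited as AKR (71). They thus had the signs of the OXPHOS members in all 5 tables. The 16 genes of the citric acid cycle and pyruvate dehydrogenase had -0.043, -0.054, 0.12, 0.20 and 0.10, with 15 of 16 higher in BALB and 14 in SEA/Gn. Cytochrome c and the carriers and pores for ATP and phosphate had -0.14, 0.074, 0.22, 0.15 and 0.25. Of this list Slc25a5, an ADP/ATP carrier, was at -0.24 in FVB Her2 and 0.55 in SEA/Gn. The 36 assembly factors outside the name rule (35 in BALB and SEA/Gn) had -0.028, -0.11, 0.031, 0.089 and 0.13.

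The 13 subunits encoded by mitochondrial DNA had a value in 3 tables. In FVB Her2 7 of 13 were higher in Lung met with a median of 0.029, while the nuclear members were mostly lower. FVB C3Tag also had 7 of 13 higher, with a median of 0.012. All 13 were higher in the table deposited as AKR, from 0.26 to 0.64 with a median of 0.40, the direction of its nuclear members. In BALB and SEA/Gn only mt-Nd6 had a value, at 0.23 and 0.28.

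Regulators of mitochondrial gene expression had medians nearer to 0 in most tables. The medians over 11 genes were -0.019, -0.15, 0.13, -0.021 and -0.032 in FVB Her2, FVB C3Tag, BALB, SEA/Gn and the table deposited as AKR. Esrra, a nuclear receptor that activates OXPHOS genes, was at -0.043, 0.10, 0.33, 0.49 and -0.0051. Its coactivator Ppargc1b was at 0.27, -0.28, 0.55, 0.38 and 0.21. The related Ppargc1a was past 1.5-fold lower in BALB, with normalized counts of 70.7 in PT and 33.1 in Lung met, a log2 ratio of -1.07, and was at -0.47 in SEA/Gn. Nrf1, Gabpa and Yy1, whose words were searched in the promoters, stayed within -0.29 and 0.13 in the 5 tables.

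**Figure D4:**
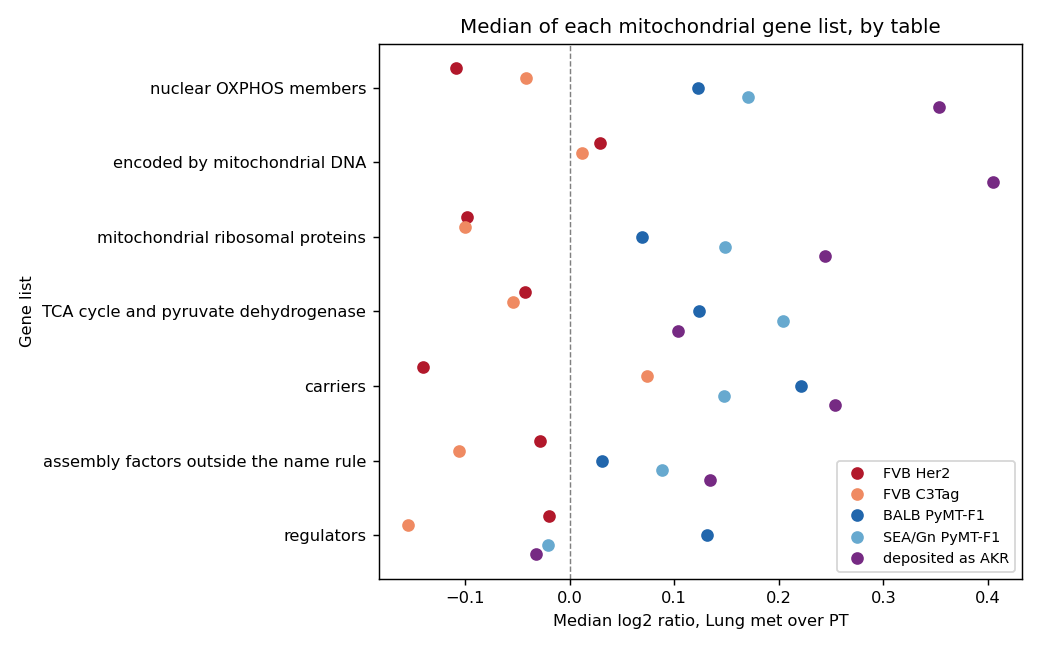
Median log2 ratio of Lung met over PT of the OXPHOS members and 6 further mitochondrial gene lists (rows) in the 5 tables (colours), with the list encoded by mitochondrial DNA drawn only for the 3 tables that held all 13 genes. FVB Her2 points lie at or left of 0 apart from the list encoded by mitochondrial DNA, and BALB points lie right of 0 in all rows drawn.

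Transcript length went along with the values most in the table deposited as AKR. Members are short genes, with a median exonic length of 1559.5 bases in FVB Her2 against 3766 for all genes (GENCODE M21). In the table deposited as AKR genes under 1500 bases had a median log2 ratio of 0.17 over all genes and those of 3000 bases and over -0.053. The members of these classes had 0.42 over 45 genes and 0.21 over 21. The member median was above that of all genes in each of these classes. Spearman's rho between length and log2 ratio was -0.515 across the 93 members and -0.213 across all genes. In FVB Her2 the members under 1500 bases had -0.12 and all genes of that class -0.037, and in SEA/Gn the values were 0.23 and 0.044. Across members rho was 0.0828 in FVB Her2, -0.137 in FVB C3Tag, -0.244 in BALB and -0.186 in SEA/Gn. The part of length in the members' values was not tested beyond these classes.

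**Figure D5:**
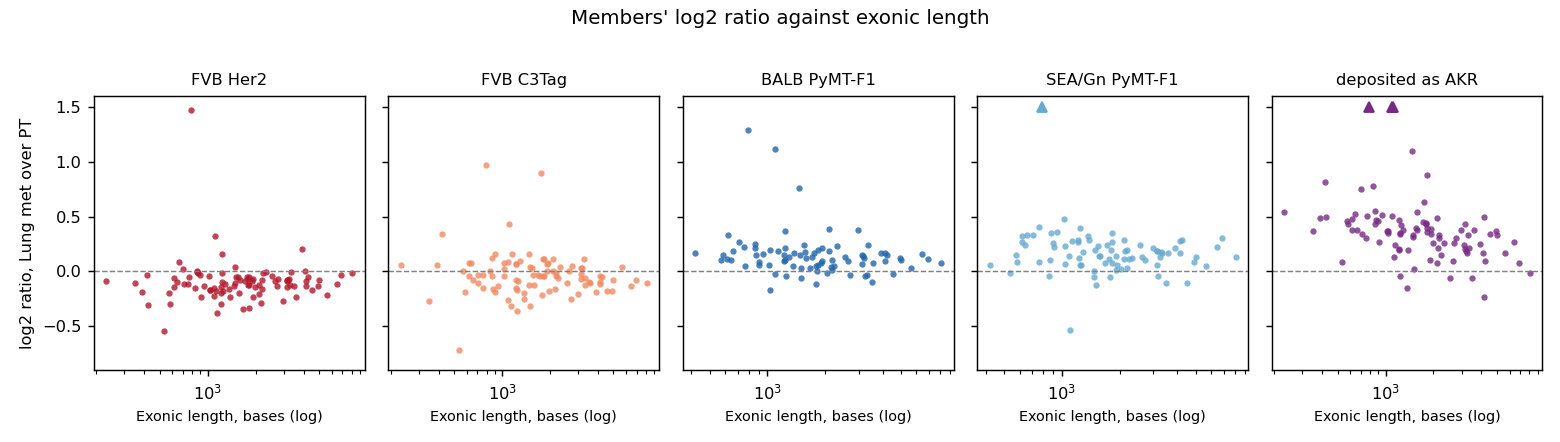
Log2 ratio of Lung met over PT of each member against its exonic length in bases (log axis) in the 5 tables, with triangles for values above the drawn range. Points slope downward with length in the table deposited as AKR and show no such slope in FVB Her2.

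The cell makeup of the samples was read from further marker lists. Mammary luminal markers had a value for all 6 genes in 4 tables and for 5 in the table deposited as AKR. The study took C3Tag as a basal-like model, so these genes may not mark all of its tumor cells. Their summed ratios were 0.99, 0.997, 1.13, 1.12 and 0.993 in the order FVB Her2, FVB C3Tag, BALB, SEA/Gn and deposited as AKR. Single luminal genes had log2 ratios from -0.096 to 3.79 in FVB Her2 and from -0.68 to 0.64 in FVB C3Tag. In BALB 3 of these genes were higher and 3 lower with a median log2 ratio of 0.0023, in SEA/Gn 4 were higher and 2 lower with 0.23. In the table deposited as AKR 3 were higher and 2 lower with a median of 0.046. The summed ratios of the OXPHOS members were 0.931, 0.973, 1.10, 1.14 and 1.23. Proliferation markers (3 genes) had 0.872, 0.602, 1.10, 1.253 and 0.893. These were below 1 in both FVB models and the table deposited as AKR and above 1 in BALB and SEA/Gn. Fibroblast markers (5 genes) were at 0.469, 0.886, 0.317, 0.192 and 0.391. These sums were carried by Col1a1 and Col1a2. In FVB Her2, BALB, SEA/Gn and the table deposited as AKR the 4 genes other than Pdgfra were all past 1.5-fold lower. Pdgfra was higher in Lung met in all 5 tables (log2 ratios from 0.44 to 0.94), and Dcn was higher in FVB C3Tag (0.75). Macrophage markers (4 of 5 with a value) were at 0.69, 1.35, 1.01, 1.05 and 1.37. T cell markers (Cd4 alone in BALB and SEA/Gn) were at 1.07, 0.869, 0.96, 1.33 and 1.55. Erythroid markers were at 1.78, 4.41, 0.713, 1.07 and 4.06, over 3 genes but over 1 gene alone in BALB and SEA/Gn. One B cell marker had a value, in FVB C3Tag, with a ratio of 2.56, and no adipocyte marker had one. The part of cell makeup and of proliferation in the OXPHOS values was not tested.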

How the data were processed

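The submitters' processing notes name STAR 2.7.8a, DESeq2 and build mm39, whereas the study's methods name Partek Flow and the builds mm9 and mm10, so the build was not settled. Libraries were of total RNA after removal of ribosomal RNA by the labels, and of mRNA by the methods. The authors normalized gene counts and deposited one table per model, in which the values used are a signal, the least-squares mean of the normalized counts of a tissue, with no SD and no value of a sample. In the table named AKR the same kind of mean was deposited, with the strain not settled. Columns of p-values, FDR, ratios and fold changes hold the authors' own comparisons and were not used, so the Myc table was left out. Depth per sample is unknown, and no interval was computed.

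From the means, log2 ratios with a pseudocount of 1 were computed for genes with a mean of at least 10, and described by counts and medians. The calculation was checked on simulated tables with known shifts. BALB and SEA/Gn genes carried BALB/cJ identifiers and were joined by symbol, with Atp5f1 taken as Atp5pb. The genes named are the isoform pairs, 15 core subunits, the 4 highest and 4 lowest members per table and members past a log2 ratio of 0.32 the same way in at least 4 tables, and others were named after their values were seen. The values of 1 member are not reported here, though it counts in the sums and medians. Members and lists (6 mitochondrial lists and 14 marker lists) were chosen with earlier results of these data known. Alternatives were other limits, pseudocounts and folds, centring, and subunits only. Lengths are from GENCODE M21. Python 3.11.15, numpy 2.4.6, pandas 2.3.3, scipy 1.17.1 and matplotlib 3.10.9 were used.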

Additional observations from a re-analysis of the deposited data

How the results depend on the processing

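PT and Lung met samples share mouse identifiers in their names, and the study describes the tissues as matched. No paired analysis was possible because no value of a single sample was analysed, and for the same reason no sample could be left out in turn. Of 80 recomputed values 68 moved by less than the limits set for a change, and no median or majority changed sign. With a mean of at least 100 the members past 1.5-fold numbered 0 in FVB Her2, 1 in FVB C3Tag, 1 in BALB and 0 in SEA/Gn, since Cox4i2 and other members of low mean no longer entered. Of all genes 4.58%, 16.5%, 6.2% and 7.49% passed it. Past a log2 ratio of 0.32 they numbered 5, 6, 7 and 11 in these tables and 56 in the table deposited as AKR, beside 18.1%, 36.6%, 24%, 27.7% and 38.7% of all genes. At 2-fold they numbered 0 in FVB C3Tag and 4 in the table deposited as AKR, beside 8.91% and 8.5% of all genes. Centred on the median of all genes, the BALB median of the members was 0.089. Cox4i2, Cox6b2, Cox7a1 and Ndufa4l2 had low means in several tables, so that their ratios rest on few normalized counts.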
